A study of Caenorhabditis elegans with 4 samples.

Results

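The nssp genes of the nematode worm Caenorhabditis elegans, a group of protein-coding genes taken here as nematode-specific genes for secreted proteins, were followed in RNA of wild-type adults. Members were taken by symbol, as every gene with an nssp number that has a microarray probe annotated to it alone. This gave 43 probes for 41 genes, out of 21632 probes and 14943 genes on the array. Interest in the family was selected on these same 4 arrays, after their ratios had been seen, so the levels below describe the members, and calls of a fit over all genes are given only as counts beside the share of all genes called. RefSeq lists 86 nssp genes, all protein-coding, and the other 45 have no such probe and were not analysed here.

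Proteins leave a cell by the secretory pathway when their chain starts with a signal peptide, which directs it into the endoplasmic reticulum and is then cut off. Nematodes make many families of small secreted proteins of this kind, among them hormones, neuropeptides, cuticle components and defence peptides. Families restricted to nematodes have no counterpart outside the phylum from which a role could be read. The sources used here assign no role or tissue to any single nssp member, so the members are described by level, chromosome and neighbours.

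The data are 4 two-colour arrays, each with RNA of 1 preparation (prep 1 to 4) of wild-type adults in one channel and the same wild-type mixed reference RNA in the other. The labels name no strain, age in days, sex or culture, nor the stages or tissues that went into the reference. Each value is a log2 ratio, so that -1 is 2-fold below the reference and 0 is equal to it. Adult over reference is the likely direction, since the adult RNA is in channel 2, and the file states no numerator. Most stage markers, given further below, also have the signs of that direction. Medians were 2.53 for sperm msp genes, 1.06 for oocyte genes and -1.79 for larval moulting genes, while yolk genes were at 0.03. Channels were never swapped, so for a single gene the effect of the dye and that of the RNA cannot be told apart.

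Most nssp genes had ratios below 0, likely lower in adults than in the reference. The mean over the arrays was below 0 for 38 of the 41 genes and above 0 for 3. The median of the 41 means was -0.82, against 0.06 over the 14935 genes with values on at least 3 arrays. The middle part of the family, from its 25th to its 75th percentile, ran from -1.22 to -0.36, and that of all genes from -0.38 to 0.46. No member was among the highest 10% of all genes, and 19 were among the lowest 10%. Of these, nssp-50 is there through its value of -4.01 on prep 4, without which its mean was 0.11. The highest member stood at percentile 59.5 of all genes. In whole-worm RNA, fewer cells that express a gene, less RNA per cell and a larger share of RNA from other tissues cannot be told apart.

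**Figure D1:**
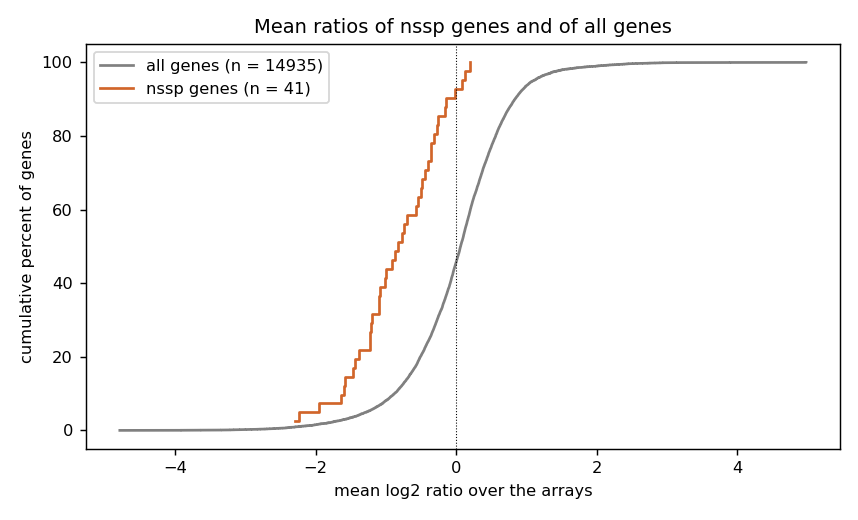
Cumulative percent of genes (y axis) against the mean log2 ratio over the arrays (x axis), for the 41 nssp genes and all 14935 genes with a mean. The nssp curve lies to the left of the curve of all genes and ends at 0.20, while all genes extend on both sides of 0.

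Counted gene by gene, 32 of the 41 members were below 0 on every array that gave a value, and 27.2% of all genes were. None was above 0 on every array, as 30.7% of all genes were, and the other 9 had both signs. A mean of -1 or lower was found for 18 members (8.09% of all genes), and no member had a mean of 1 or higher (6.36% of all genes). In a limma fit over all genes, 28 members were called negative at an adjusted p under 0.05, where 21.2% of all genes were called negative. No member was called positive, where 23.2% of all genes were, and none had a positive mean with an unadjusted p under 0.05 either. Since the family was chosen on this contrast, these counts are a description and no evidence that the family differs from other genes.

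The lowest member was nssp-63, with log2 ratios of -2.43, -2.16, -2.27 and -2.31 on preps 1 to 4. Its 4 values lay within 0.26 of each other, and the mean of -2.29 ± 0.11 (SD, n = 4) is 4.89-fold below the reference. Next came nssp-23, with -2.34, -2.69, -1.91 and -2.0 and a mean of -2.23 ± 0.36, or 4.70-fold below. The values of these 2 genes overlapped between arrays, and only 0.94% and 1.04% of all genes had a lower mean than each.

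The X-linked gene nssp-76 had -2.21, -2.04, -1.35 and -2.21, with prep 3 the highest, and a mean of -1.95 ± 0.41. For nssp-81, also on X, the ratios were -1.86, -1.46, -1.69 and -1.56, with a mean of -1.64 ± 0.18. The gene nssp-82, likewise X-linked, gave -1.71, -2.06, -1.40 and -1.15, with a mean of -1.58 ± 0.40. These 3 genes were between 2.99-fold and 3.87-fold below the reference, and their values overlapped one another.

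The mean of nssp-64, -1.59 ± 0.20, joins 2 probes that disagreed. One probe gave -0.60, -0.45, -0.25 and -0.50 on preps 1 to 4, with a mean of -0.45 ± 0.15. The other gave -3.16, -2.45, -2.70 and -2.64, with a mean of -2.74 ± 0.30. Both probes were below 0 on every array, but their ranges did not overlap, and each repeated closely between preps. The difference of 2.29 between the probe means was exceeded in 1.03% of the 1456 genes with several probes, where the median difference was 0.26. Which probe gives the level of nssp-64 was not tested, so its place in the order holds only for the average. The other member with a pair of probes, nssp-59, had means of -0.20 and -0.10 on them.

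The members between these and a mean of -1 were nssp-55 at -1.47 ± 0.10, nssp-12 at -1.44 ± 0.30, nssp-86 at -1.38 ± 0.38 and nssp-87 at -1.22 ± 0.29. They were followed by nssp-88 at -1.22 ± 0.66, nssp-77 at -1.21 ± 0.32 (n = 3) and nssp-29 at -1.20 ± 0.31. The last of this range were nssp-83 at -1.10 ± 0.17, nssp-79 at -1.09 ± 0.15, nssp-78 at -1.09 ± 0.52, nssp-14 at -1.02 ± 0.43 and nssp-60 at -1.003 ± 0.55. In 9 genes, nssp-63, nssp-23, nssp-76, nssp-81, nssp-64, nssp-82, nssp-55, nssp-12 and nssp-86, every array was at -1 or lower. For nssp-64 this holds for the average only, as 1 of its probes was above -1 on every array. The gene nssp-12 has a further probe that the annotation gives to it and to F36D3.1 together. That probe, left out of the mean, gave -0.33, -0.04, 0.36 and -0.001 on preps 1 to 4 and did not share the low values of the gene's own probe.

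A middle set of 8 genes had means between -1 and -0.5. Here stood nssp-35 at -0.87 ± 0.33, nssp-84 at -0.82 ± 0.73, nssp-34 at -0.77 ± 0.29, nssp-42 at -0.75 ± 0.42 and nssp-54 at -0.70 ± 0.10. The set also held nssp-51 at -0.57 ± 0.41 and nssp-72 at -0.54 ± 0.63 (n = 3), all of whose values were below 0. The remaining gene, nssp-50, owed its mean of -0.92 to 1 array. It had -0.20, 0.39 and 0.15 on preps 1 to 3 and -4.01 on prep 4, the lowest ratio of any member on any array. Without prep 4 its mean was 0.11 ± 0.29 (SD, n = 3).

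Closer to 0, 12 genes had means between -0.5 and 0. Those below 0 on every array were nssp-91 at -0.49 ± 0.21, nssp-61 at -0.48 ± 0.19, nssp-44 at -0.44 ± 0.17 and nssp-2 at -0.40 ± 0.19. The same held for nssp-25 at -0.36 ± 0.35, nssp-74 at -0.35 ± 0.20 and nssp-36 at -0.31 ± 0.21. The last 3 of these were not called by limma, and nor was nssp-72. Values of both signs were found for nssp-75, whose ratios were -0.24, 0.48, -0.54 and -0.74 (mean -0.26 ± 0.53), and for nssp-47, with a mean of -0.27 ± 0.57.

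At the upper end, nssp-39 had 0.14, -0.25, -0.46 and -0.07 on preps 1 to 4, with a mean of -0.16 ± 0.25. For nssp-59, the average of its probes was 0.05, 0.03, -0.41 and -0.26, with a mean of -0.15 ± 0.23. The ratios of nssp-11 were 0.46, -0.35, 0.31 and -0.48, with a mean of -0.01 ± 0.47. None of these 3 held one sign over the arrays.

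The 3 genes with a positive mean were no different in this respect. For nssp-7 the ratios were 0.26, -0.21, -0.004 and 0.29, and the mean was 0.08 ± 0.24. In nssp-43 they were 0.54, 0.05, 0.42 and -0.49, with a mean of 0.13 ± 0.46. The highest member, nssp-22, gave -0.23, 0.29, 0.13 and 0.60, with a mean of 0.20 ± 0.34. Each had at least 1 array on the other side of 0, so no nssp gene stood above the reference by more than its own spread. Every value of 24 members was below the lowest of nssp-22, a count that follows in part from taking the highest member.

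**Figure D2:**
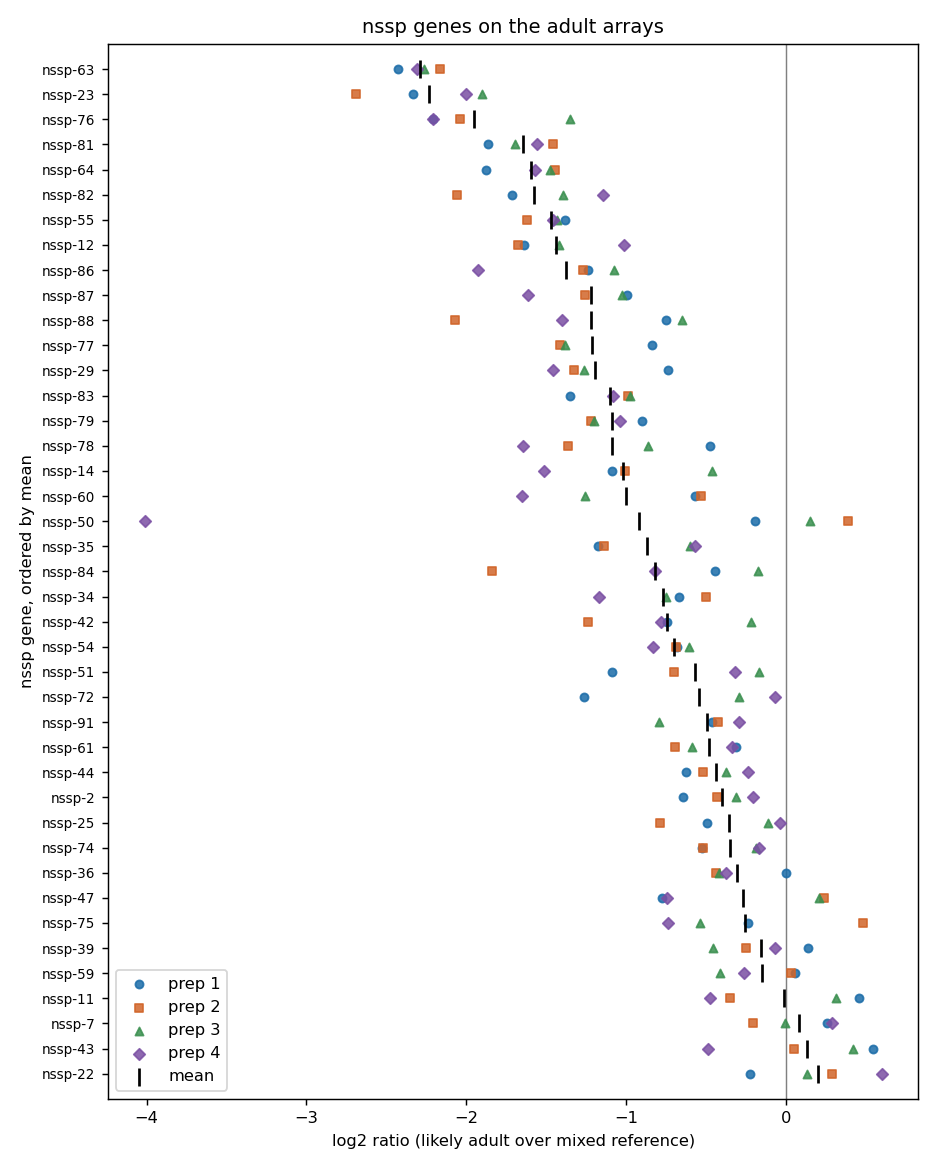
Log2 ratio (x axis) of each of the 41 nssp genes (y axis, ordered by mean), with a symbol for each prep and a bar for the mean. The row of nssp-50 holds a lone value at -4.01 on prep 4, and apart from that row the values on the right of 0 are in the 8 genes at the bottom.

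The order of the members is gradual. All 40 pairs of neighbours in the order differed by less than the sum of their SDs over the arrays. Sorting itself makes adjacent means close, and that sum does not use the pairing of genes on the same arrays. The order of adjacent genes was therefore not tested and should not be relied on. The median SD of a member was 0.32, close to the 0.31 of all genes. It ran from 0.10 for nssp-54 to 2.08 for nssp-50, and 11 members had a range of over 1 between arrays.

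Each prep showed the shift. From prep 1 to prep 4 the member medians were -0.74, -0.89, -0.60 and -0.83, while that of all genes lay between 0.001 and 0.085. Values below 0 were found for 36 of 41 members on preps 1 and 3, for 34 of 40 on prep 2 and for 38 of 40 on prep 4. Preps 3 and 4 share a date in their titles. Their average was higher than that of preps 1 and 2 in 22 of the 39 members with values on every array. The median difference was 0.04. Over all genes, about as many were higher on preps 3 and 4 as were not, so the members were close to all genes in this. Over those 39 members, Pearson's r between 2 arrays ran from 0.415 to 0.823, and without nssp-50 from 0.730 to 0.821. These are correlations across genes that share the reference RNA, and genes are not independent replicates.

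Of the 28 members called by limma, 22 (78.6%) kept the call when any 1 prep was left out, beside 67.2% of the 3171 genes called negative in all. Over all genes the calls fell from 6639 to between 4954 and 5815 with 1 prep fewer. The other 6 members, nssp-2, nssp-44, nssp-51, nssp-61, nssp-84 and nssp-91, lost the call at least once, and all kept a negative mean. The ratio of nssp-84 was low on 1 array: prep 2 gave -1.84 where the other preps gave -0.82 to -0.17. Its mean was -0.48 without prep 2 and -0.82, as with all preps, without prep 4, and the call was lost in both cases.

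For nssp-2 the call was lost whichever prep was left out, with means between -0.46 and -0.32 around the -0.40 of all preps, and also with the title date as a block. In nssp-51 it was lost without prep 1, 2 or 4, with means of -0.40, -0.53 and -0.65. In nssp-44 and nssp-91 it was lost without prep 1, 2 or 3, with means between -0.46 and -0.38 for the first and between -0.52 and -0.40 for the second. In nssp-61 it was lost without prep 2 or 3, with means of -0.41 and -0.45. A lost call was thus not always a value nearer to 0.

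The members are spread over all 6 chromosomes, a property the choice of members did not use. Of the 41, 14 (34.1%) lie on X, where 14.9% of all genes tested lie, and 10 (24.4%) on chromosome V, which holds 25.7% of genes tested. Chromosome I holds 2 members, II holds 6, III holds 4 and IV holds 5. Among the 86 nssp genes of RefSeq, 18 (20.9%) are on X, against 13.7% of protein-coding genes, so the share on X is larger among the measured members than in the family.

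Members on X had a lower median than those on the autosomes, as all X-linked genes did against all autosomal genes. The 14 X-linked members had a median of -1.16 and ran from -1.95 for nssp-76 to -0.26 for nssp-75. The 27 autosomal members had a median of -0.57 and ran from -2.29 for nssp-63 to 0.20 for nssp-22, a range that covers that of X. Over all genes tested the medians were -0.17 on X and 0.11 on the autosomes. Each of the 14 X-linked members was below the median of X genes, and 25 of the 27 autosomal ones were below that of autosomal genes. Limma called 12 of the 14 members on X negative, beside 31.2% of all X genes tested. On the autosomes it called 16 of the 27 negative, beside 19.5% of all autosomal genes. A lower level on X was thus shared with X-linked genes in general.

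The X-linked members were at a lower median than the autosomal members on each array. The medians on X were -0.87, -1.32, -1.0 and -1.15 on preps 1 to 4, and those on the autosomes were -0.67, -0.61, -0.42 and -0.57. Over all genes X was also lower on each array, with medians of -0.21 to -0.17 against 0.03 to 0.14 on the autosomes.

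**Figure D3:**
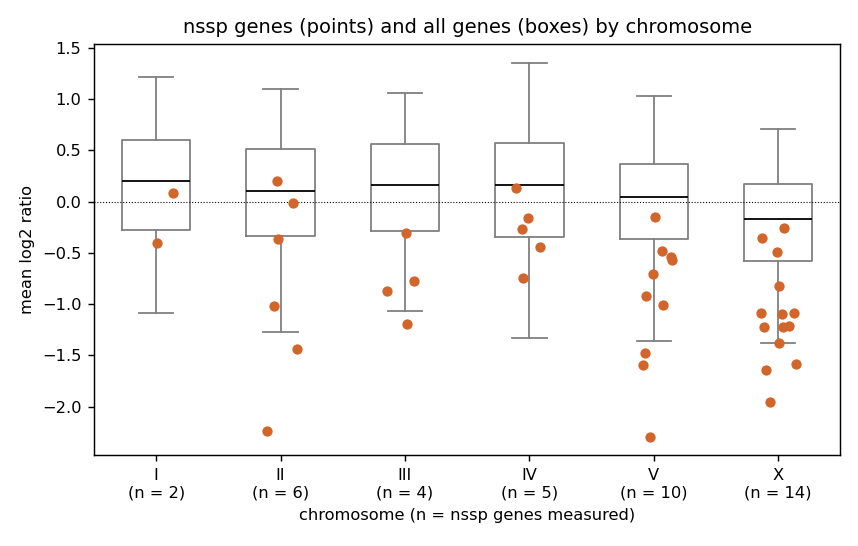
Mean log2 ratio (y axis) by chromosome (x axis), with a point for each nssp gene and a box for all genes (median and quartiles, whiskers at the 5th and 95th percentiles). The 14 points on X all lie below the X median of -0.17, and those on chromosomes II and V spread from near 0 to below -2.

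The genes next to the members had ratios of both signs. For each member, the nearest gene with a measured ratio was taken on either side in the gene order of assembly WBcel235. The 80 distinct neighbours that are not nssp genes had a median of -0.005, somewhat below the 0.06 of all genes. Of these neighbours, limma called 23 negative (28.75%, beside 21.2% of all genes) and 13 positive (16.25%, beside 23.2%). A total of 33 of the 41 members had a lower mean than both neighbours, none had a higher mean than both, and 8 lay between them. Over all genes, 31.8% had a lower mean than both neighbours. Asked of every array in turn, 16 members were below both neighbours on each, beside 13.8% of all genes. The family was chosen after its ratios had been seen, and a gene with a low ratio lies below most neighbours. These counts are thus a description and no evidence that members differ from the genes around them.

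Some members stood well below neighbours near or above 0. On X, nssp-78 at -1.09 lies between mup-2, the gene for a muscle troponin T, at 0.72 ± 0.34 and T22E5.6 at 0.51 ± 1.11. Also on X, nssp-83 at -1.10 has cdd-1, a cytidine deaminase gene, at 0.05 ± 0.18 on one side and nlp-90 at 0.36 ± 0.34 on the other. On chromosome II, nssp-12 at -1.44 lies between C13A10.1 at 0.11 ± 0.25 and rog-1 at -0.12 ± 0.20. These 3 members were below both neighbours on every array. For nssp-12 this holds for its own probe only. The probe it shares with F36D3.1 gave -0.33, -0.04, 0.36 and -0.001 on preps 1 to 4, near the levels of these neighbours.

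Of the lowest members, nssp-63 at -2.29 stands between nas-31, an astacin metalloprotease gene, at -1.02 ± 0.46 and scvp-1 at -0.62 ± 0.47. Next to nssp-64 lie F17C11.26 at -0.41 ± 0.45 and the collagen gene col-153 at -0.96 ± 0.17. For nssp-76 the neighbours are gid-2 at -0.40 ± 0.27 and fox-1, whose RNA-binding protein takes part in counting X chromosomes in sex determination, at -0.88 ± 0.38. For nssp-81 they are pcyt-2.2 at -0.45 ± 0.22 and C39D10.5 at -0.62 ± 0.62. Here the neighbours were themselves below 0, and the member was lower still. For nssp-64 this holds for the average of its probes, since 1 of them, at -0.45, was above col-153.

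Elsewhere a neighbour was as low as the member. Beside nssp-23 at -2.23 stands nep-26, of the neprilysin family of metallopeptidases, at -2.06 ± 0.25, and on its other side F54B3.2 at 0.21 ± 0.33. The neighbour C18A11.1 of nssp-82 had -1.74 ± 0.54 and the other, C18A11.3, 0.69 ± 0.15. Next to nssp-87 at -1.22, R07E3.6 had -1.50 ± 0.26 and F41E7.6 had 0.11 ± 0.29. Close matches with a neighbour were also found for nssp-91 with twf-2 (-0.50 ± 0.33) and for nssp-2 with nhr-64, a nuclear hormone receptor gene (-0.39 ± 0.65).

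At the upper end of the family, nssp-22 at 0.20 lies between ZK1321.4 at 0.65 ± 0.34 and the cytochrome P450 gene cyp-13A1 at -1.91 ± 0.33. Beside nssp-43 at 0.13 are spig-13 at -1.04 ± 0.37 and the histone gene his-30 at 0.29 ± 0.42. The neighbours of nssp-7 at 0.08 are rpl-14, a ribosomal protein gene, at 0.26 ± 0.33 and C04F12.7 at 1.46 ± 0.36. Around nssp-11 at -0.01 lie C08G5.6 at -0.60 ± 0.31 and Y39F10A.3 at 0.20 ± 0.26. The next members down, nssp-59 and nssp-39, were below both of theirs by mean, but neither was so on every array. The neighbours of nssp-59 were acd-4 (-0.02 ± 0.14) and asp-13, an aspartyl protease gene (0.19 ± 0.49). Those of nssp-39 were lag-1, the Notch pathway's DNA-binding factor (0.25 ± 0.49), and the kinesin gene zen-4 (0.62 ± 0.51).

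**Figure D4:**
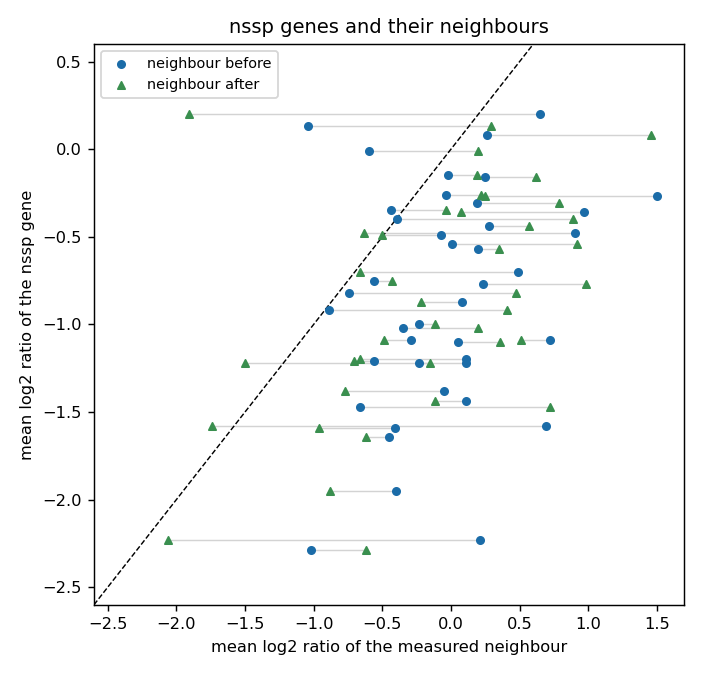
Mean log2 ratio of each nssp gene (y axis) against those of its measured neighbours before and after it on the chromosome (x axis), joined by a line for each gene. Points to the right of the dashed line of equality are neighbours with a higher ratio than the nssp gene, and for 33 of the 41 genes both points lie there.

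A few members lie near each other. The pairs nssp-54 and nssp-55 on chromosome V and nssp-74 and nssp-75 on X are each separated by 1 gene. In the first pair nssp-54 was at -0.70 and nssp-55 at -1.47, and their array values did not overlap. The gene between them, C12D5.4, had -0.66 ± 0.79. In the second pair nssp-74 was at -0.35 and nssp-75 at -0.26, within their spread, and the neuropeptide receptor gene npr-11 between them had -0.04 ± 0.23. The next closest pair, nssp-63 and nssp-64 on chromosome V, is separated by 6 genes.

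Other families of nematode peptides and secreted proteins had medians on both sides of 0. Their limma calls, here and in the families that follow, stand beside 21.2% of all genes called negative and 23.2% called positive. A small family with few calls can thus be close to all genes, as nspb is in its positive calls. The groups nspa and nspd, named for nematode-specific peptides like nspb and nspc, had medians of 1.25 and 2.06, and all 5 and all 8 of their measured genes were called positive by limma. The nspd genes ran from nspd-9 at 0.49 ± 0.35 to nspd-2 at 2.76 ± 0.59, and nspa from nspa-9 at 0.86 ± 0.39 to nspa-1 at 1.6 ± 1.56. The 9 nspb genes were near 0, with a median of 0.26, 2 called positive and none negative, from nspb-2 at -0.26 ± 0.41 to nspb-3 at 0.51 ± 0.33. The 4 nspc genes had a median of -0.68 and 2 negative calls, from nspc-20 at -2.36 ± 0.46 to nspc-13 at -0.01 ± 0.16. No nspe or nspf gene had a probe of its own.

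Caenacins (cnc), antimicrobial peptides of the epidermis, had a lower median than the nssp genes, -2.09, with 5 of 7 called negative. They ran from cnc-2 at -3.21 ± 0.75 to cnc-8 at 0.02 ± 0.93. The transthyretin-related ttr genes had a median of -0.53, with 23 of 45 called negative and 3 positive, from ttr-29 at -2.48 ± 0.44 to ttr-14 at 1.79 ± 0.64. The scl genes, for secreted SCP-like proteins, had a median of -0.20, with 8 of 23 negative and 1 positive, from scl-11 at -3.07 ± 0.56 to scl-6 at 1.38 ± 0.80. Of the fipr genes, related to peptides induced by fungal infection, 3 of 9 were called negative and none positive, with a median of -0.20, from fipr-24 at -2.41 ± 0.39 to fipr-16 at 0.33 ± 0.46. Both ttr and scl thus held members above 1, which nssp did not.

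A further 3 families of secreted peptides were added after the nssp values were seen. The flp genes, for FMRFamide-like neuropeptides, had a median of -1.63, with 20 of 22 called negative and none positive. The nlp genes, for other neuropeptide-like proteins, had a median of -1.11, with 43 of 53 negative and 2 positive. They were taken by symbol, and that name also covers defence peptides of the epidermis, which were not separated here. For the insulin-like ins genes the median was -0.64, with 11 of 20 negative and none positive. By median, nssp at -0.82 lay between the nlp and the ins genes, and the ranges of these families overlapped. These extremes were flp-15 at -2.54 ± 0.26 and flp-23 at 0.28 ± 0.31, nlp-12 at -2.59 ± 0.43 and nlp-22 at 0.54 ± 0.22, and ins-35 at -1.92 ± 0.22 and ins-37 at 0.12 ± 0.10. The differences between families were not tested.

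**Figure D5:**
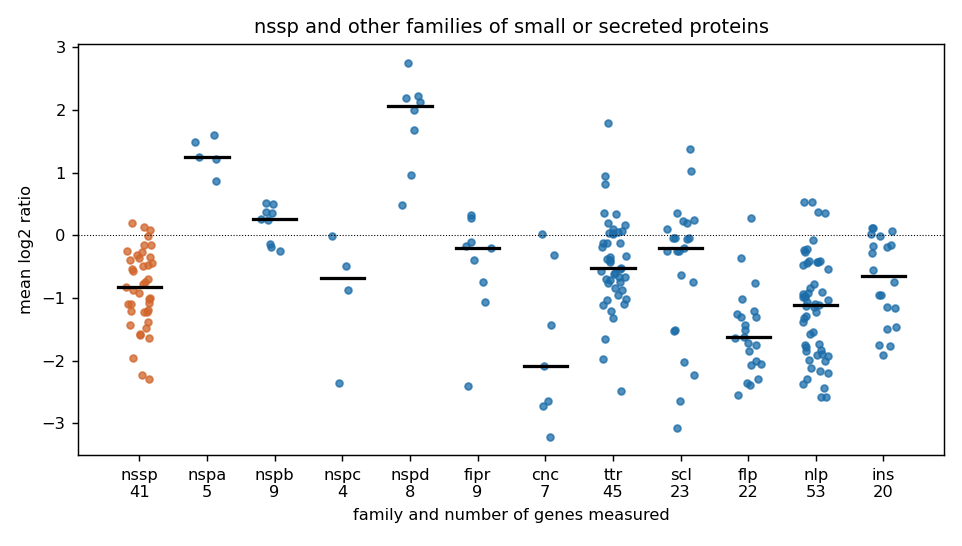
Mean log2 ratio (y axis) of each measured gene of nssp and 11 other families (x axis, with the number of genes), with a line at each family's median. The nssp points lie between -2.29 and 0.20, the nspd points above 0, and most flp and nlp points below 0.

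Markers of stage and tissue moved in both directions in the same RNA. Sperm msp genes had a median of 2.53 (29 of 30 called positive) and oocyte genes 1.06 (6 of 6 positive), while the 3 yolk genes that have a probe of their own had a median of 0.03 and no call. The yolk median differed between arrays, with -0.21, -0.56 and -0.03 on preps 1 to 3 and 1.49 on prep 4. Larval moulting genes had a median of -1.79 (5 of 7 negative). Pharynx genes had a median of -1.01 (5 of 7 negative, 1 positive) and intestine genes one of -0.09 (1 of 7 positive). Over all genes, 21.2% were called negative and 23.2% positive. Epidermis genes had -1.01, with 3 of 5 negative and adult-specific col-19, the 1 positive call, at 2.88 ± 0.45. The lowest of them was dpy-7 at -3.03 ± 0.45, so with this spread their median is no measure of epidermal RNA content. The moulting median ran over preps 1 to 4 as -2.17, -2.09, -1.19 and -1.74, the epidermis median as -0.93, -1.56, -0.60 and -0.96, and the pharynx median as -1.15, -0.88, -0.98 and -0.67. Prep 3, on which the nssp median was nearest to 0, was also nearest to 0 for moulting and epidermis but not for pharynx, and it had the smallest SD over all spots (0.756). The part of stage or tissue content in the nssp ratios was not tested.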

How the data were processed

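The deposited table holds log2 ratios of probes on 4 arrays. That unit follows from the values, since 2 raised to the deposited log2 value is a ratio with 3 decimals, within 0.00001, for at least 99.934% of spots. For scanner, dyes, background correction and normalization the labels give nothing, and array medians lay between -0.0043 and 0.0496. Pearson's r between arrays over all probes was 0.659 to 0.755. Without intensities, spots near background cannot be told apart.

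By GEO's platform annotation, 16450 probes carry 1 symbol, 247 carry several and 4935 carry none. Symbols and chromosomes came from RefSeq, assembly WBcel235, with all 41 members matched by gene ID. Coordinates are left out, as the array's genome build is unknown. Probes of a gene were averaged on each array. The fit took all genes with 3 or more values and used limma 3.58.1 under R 4.3.3 (intercept, eBayes, Benjamini-Hochberg adjustment, threshold 0.05, two-sided), tested on simulated data first. The labels do not say whether preps came from separate cultures, so the spread may be technical. The test leaves out the reference's own spread.

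The members and lists were chosen with earlier results of these data known. The naming rule took every member, in full for the 6 highest and 6 lowest, the extremes of each family, and measured neighbours. To keep the text short, neighbours are named for those 12 members and a choice of others made after their values were seen. Planned sequence comparisons were not run, as no sequence was used here. Alternatives were array centring and scaling, probe summaries, missing values, variance models, the title date as a block and leaving out each prep.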

Additional observations from a re-analysis of the deposited data

Results flagged for a closer look

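Of 58 sets of 4 values (members, family medians and marker medians) searched for 1 prep far from the other arrays, 5 stood out, where chance gives about 1 in 20, or 2.9. The ratio of nssp-50 was -4.01 on prep 4, while the other preps gave -0.20 to 0.39. For nssp-36 it was -0.0014 on prep 1 and between -0.44 and -0.38 elsewhere. The cnc median was -1.69 on prep 1 and between -2.26 and -2.18 elsewhere, the ttr median -0.63 on prep 4 and between -0.43 and -0.39 elsewhere, and the scl median -0.094 on prep 2 and between -0.25 and -0.24 elsewhere. No cause was tested for any of them.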

How the results depend on the processing

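The median of the members, -0.82, lay between -0.842 and -0.773 when arrays were centred, or also scaled, when a gene's probes were summarised otherwise, and when values on all 4 arrays were required. It was between -0.923 and -0.78 without 1 prep, and -0.797 without nssp-50, an alternative added after seeing the data. The 28 negative limma calls of members became 27 with the title date as a block (6019 calls over all genes, beside 6639) or with values required on all arrays (6612), and were 28 with array weights (6882), the robust prior (6642), centring (6584) or scaling (6616). Without 1 prep they numbered 22 to 25 (4954 to 5815 over all genes), and 18 when a mean of at least 1 in size was also asked, a subset by construction. Members above 0 on every array numbered between 0 and 1 when 1 prep was left out. Turning the sign of every array, since the numerator is not stated, leaves 3 members with a negative mean in place of 38, by construction. The mean of nssp-64 became -0.448 with 1 probe per gene, and that of nssp-50 became 0.114 without prep 4. Limma's own estimator gives no correlation for the title date with 4 arrays, so it was taken from squared differences within and between dates (0.271). No paired analysis was possible because all arrays form 1 group. The number of arrays, 4, limits the precision.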
